A study of Mus musculus with 3 samples.

Results

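Forkhead genes encode a family of transcription factors that share the winged-helix (forkhead) DNA-binding domain, and this account follows the genomic intervals that LMX1B chromatin immunoprecipitation followed by sequencing (ChIP-seq) placed around them. The members were all protein-coding genes of the RefSeq table for GRCm38.p6, whose coordinates are those of mm10, with a symbol of the form Fox, 1 letter from a to s, a number and at most 1 further letter. This gave 44 of 21779 protein-coding genes. An interval was counted for a gene when its midpoint lay in the gene's domain, which reaches from the gene body on either side as far as the neighbouring protein-coding gene, and no more than 1 Mb. An interval between neighbouring genes therefore counts for each of them, and assignment to a domain does not show which gene, if any, a site acts on.

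Every sample came from C57BL/6 mice at embryonic day 12.5, from limb buds of fore- and hindlimbs that were pooled in 2 runs of 48. Chromatin was precipitated with a polyclonal antibody against LMX1B, which the labels spell both BMO8 and BM08, in 2 samples. They are called the first ChIP, whose track name marks it as wild type (WT), and the validation ChIP, whose track name gives no genotype. An input from pooled wild-type and mutant chromatin, with no antibody and a mutation that the labels do not name, had no interval list here and entered no comparison.

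LMX1B, a homeodomain protein of the LIM class, specifies dorsal identity in the limb mesenchyme. Forkhead factors bind DNA mostly as monomers and serve in many tissues: FOXC and FOXF proteins act in mesenchyme, FOXP proteins in neurons, cartilage and lung, FOXO proteins downstream of insulin signalling, and FOXA proteins in endoderm, where they can bind compact chromatin. In the limb, FOXC1 and FOXC2 are known for roles in skeletal and connective tissue mesenchyme, and FOXP1 for setting up the motor neuron columns that innervate the limb.

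Each ChIP had 1 sample, so there is no spread between replicates and no test between samples. The first ChIP listed 1287 intervals and the validation ChIP 4501, and 707 of the former (54.9%) overlapped 701 of the latter (15.6%) by at least 1 bp, which is called shared here. Every summit carries a whole-number score set by the authors, with no stated unit; it is read only within its own list, where it runs from 12 to 86 in the first ChIP and from 6 to 55 in the validation ChIP. Read depth is unknown, and interval lists hold no expression values, so the labelled tissue could not be checked against marker genes. In pooled tissue, occupancy in few cells and weak occupancy in many cannot be told apart.

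Of the 44 forkhead genes, 17 had an interval of either list in their domain (38.6%, beside 16.7% of all protein-coding genes) and 27 had none. A shared interval lay in the domains of 3 members, Foxd2, Foxp1 and Foxp4 (6.82%), beside 3.41% of all protein-coding genes. First-ChIP intervals lay in 7 domains (15.9%, beside 6.04% of all), and validation intervals in 15 (34.1%, beside 15.1% of all). The intervals themselves were few: 9 distinct ones of the first ChIP, 3 of them shared, and 25 of the validation ChIP. In 10 members only the validation ChIP, the longer list, had an interval (22.7%, beside 10.7% of all protein-coding genes), and in 2 only the first ChIP (4.55%, beside 1.64%). In 2 more, Foxn3 among them, both had intervals and none was shared (4.55%, beside 0.992%).

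**Figure D1:**
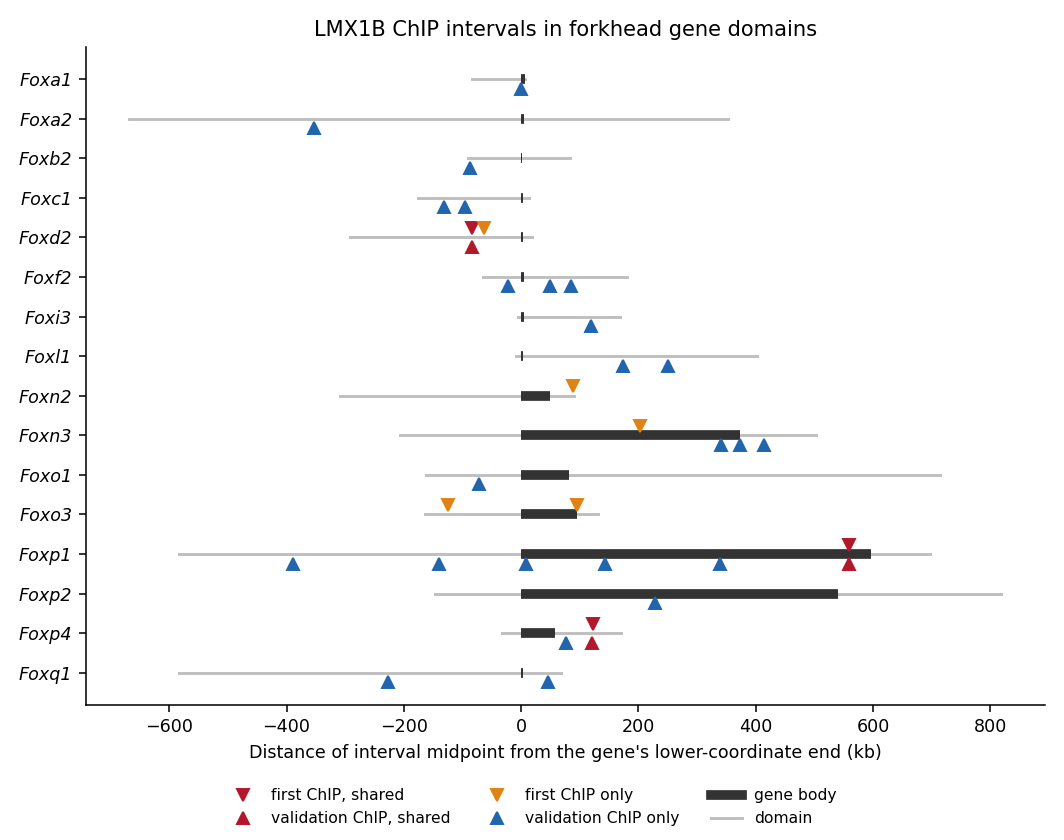
Intervals in the domains of 16 of the 17 forkhead genes that held any. The x axis is the distance in kb from the gene end with the lower coordinate, grey lines are domains, black bars are gene bodies, and triangles are interval midpoints of the first ChIP (pointing down) and the validation ChIP (pointing up). Red marks shared intervals, which are seen at Foxd2, Foxp1 and Foxp4; an interval between neighbouring members, such as Foxf2 and Foxc1, is drawn for each.

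Forkhead genes lie in longer domains than most genes, with a median of 174 kb beside 67.3 kb over all protein-coding genes, and a longer domain offers more room for an interval. Of the 19 members with domains under 100 kb, none had a shared or first-ChIP interval (0.894% and 2.76% of all genes in that class did), and 1 of them, Foxa1, had a validation interval (5.26%, beside 6.35%). Between 100 and 500 kb, 2 of 18 had a shared interval (11.1%, beside 3.72%), 4 a first-ChIP interval (22.2%, beside 6.91%) and 7 a validation interval (38.9%, beside 21.8%). Over 500 kb, 1 of 7 had a shared interval (14.3%, beside 19.6%), 3 a first-ChIP interval (42.9%, beside 25.6%) and all 7 a validation interval (beside 53.5%). In the class of 100 to 500 kb, shared and first-ChIP intervals thus differed more from all genes than in the raw shares. Under 100 kb the forkhead shares were below those of all genes, as was the shared one over 500 kb. Counted per Mb over all domains together, the difference from other genes was smaller than in the raw shares. Over the 12.9 Mb that the 44 domains cover together, there were 0.232 shared intervals per Mb beside 0.266 over the domains of all protein-coding genes, 0.696 beside 0.485 of the first ChIP, and 1.93 beside 1.70 of the validation ChIP. The share of forkhead domains with a shared interval is thus above that of all genes, while the number of shared intervals per Mb is not.

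**Figure D2:**
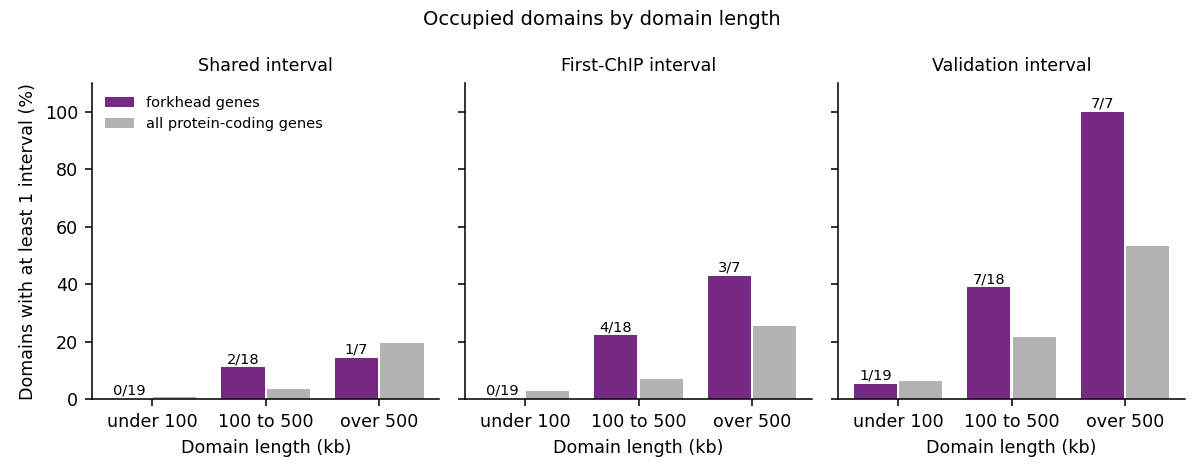
Percentage of domains with at least 1 interval (y axis) by domain length class (x axis, kb), for forkhead genes (purple, with the number of members above each bar) and all protein-coding genes (grey). Shared intervals were in 0 of 19, 2 of 18 and 1 of 7 forkhead domains, and validation intervals in 1 of 19, 7 of 18 and 7 of 7.

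The first-ChIP intervals of forkhead domains stood low in their list. Their scores ran from 15 to 23 with a median of 17, beside a median of 20 in the whole list, and 2 of the 9 reached that median (22.2%, beside 55.3% of the whole list, where scores are tied). The 25 validation intervals had scores from 7 to 32 with a median of 12, beside 11 in the whole list, and 16 of them reached the list's median (64.0%, close to the 57.6% of the whole list). No forkhead domain held a first-ChIP interval with a score above 23, whereas 1 validation interval, between Foxf2 and Foxc1, ranked near the top of its list.

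**Figure D3:**
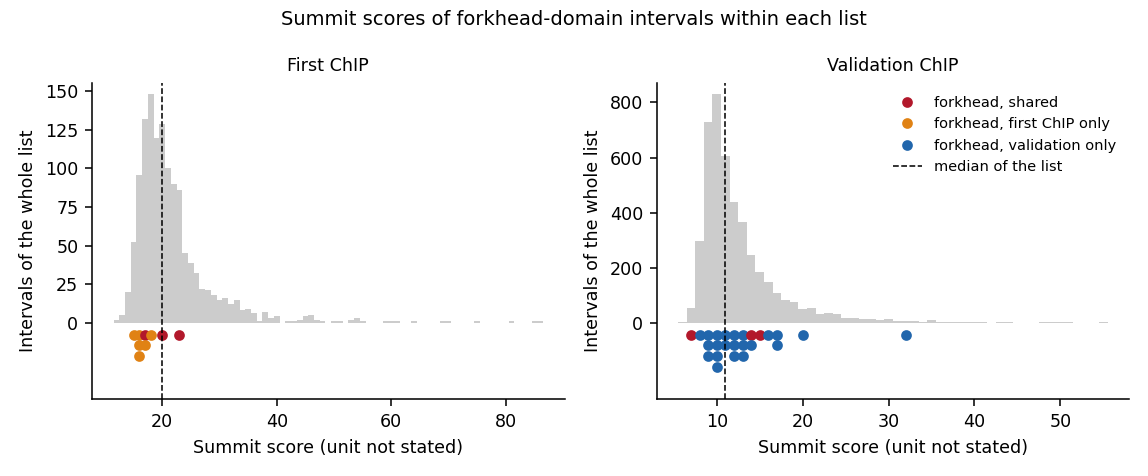
Summit scores (x axis, unit not stated) of forkhead-domain intervals, drawn as dots under the histogram of the whole list (grey, y axis number of intervals; dashed line, median of 20 in the first ChIP and 11 in the validation ChIP). Red dots are shared intervals; in the first ChIP the dots end at 23, and in the validation ChIP 1 dot stands apart at 32.

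Among members with a shared interval, Foxd2 had the closest match between the lists. Foxd2, a mesenchymal forkhead factor, lies on chromosome 4 at 114906280 to 114908898, between Trabd2b and Foxe3, in a domain of 309 kb. The shared interval spanned 114821595 to 114822164 in the first ChIP, with a score of 23, and 114821604 to 114822116 in the validation ChIP, with a score of 14. Both summits were listed at the same position, 114821920, and the whole validation interval lay inside the first-ChIP one. In the first ChIP 307 intervals scored higher, and in the validation ChIP 934 did. The site lay 84.4 kb beyond the 3′ end of Foxd2, on the strand the promoter table gives it, and Foxd2 was its nearest protein-coding gene, while the domain of Trabd2b also holds it. Its midpoint was inside 3 overlapping long non-coding RNA genes, Gm33655, 9130410C08Rik and Gm12830, and 159 bp from the start of Gm12830. A second first-ChIP interval at 114843292 to 114843551, with a score of 18, lay 62.9 kb from Foxd2 inside Gm33655 and Gm12830, with no validation interval within 21.2 kb. Foxe3, a lens gene that neighbours Foxd2, had no interval in its own 51.7 kb domain.

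The start of Gm12830 is the best-matched site of the family for which sequence was at hand, so the 250 bases before it are shown, as RefSeq (GRCm38.p6) gives them, at chr4:114821470-114821719 on the plus strand. Capitals mark the 125 bases inside the first-ChIP interval.
Gm12830: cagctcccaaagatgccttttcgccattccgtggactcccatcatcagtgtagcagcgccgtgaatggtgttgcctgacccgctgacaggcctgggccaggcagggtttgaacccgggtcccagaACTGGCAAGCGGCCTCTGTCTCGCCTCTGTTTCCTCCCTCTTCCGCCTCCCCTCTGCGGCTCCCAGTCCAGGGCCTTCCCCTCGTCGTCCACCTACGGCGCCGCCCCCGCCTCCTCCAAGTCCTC
The homeodomain core TAATTA, which is also contained in the longer TTAATTA, was not found in these bases on either strand, nor were the forkhead cores TGTTTAC and TGTTTGC. The GC box GGGCGG was found at 1 position. Of all 32851 RefSeq windows of the same length, 4.84% hold the shorter homeodomain core and 2.78% the longer one, 3.17% and 4.30% hold the forkhead cores in the order named, and 32.7% hold the GC box. The rest of the interval, its summit included, lies outside this window and was not searched.

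Foxp1 had the most intervals of any forkhead gene. It encodes a forkhead repressor with a zinc finger and a leucine zipper and lies on chromosome 6 at 98925342 to 99522746, in a domain of 1279 kb between Gm765 and Eif4e3. The shared interval was in the gene body, at 99484937 to 99485216 with a score of 17 in the first ChIP and at 99484635 to 99485226 with a score of 15 in the validation ChIP. Its midpoint lay 37.7 kb from the 5′ gene end and 35.9 kb from the nearest of the 3 Foxp1 starts in the promoter table. The summits were 144 bp apart; the first-ChIP interval was wholly covered, and 47.3% of the validation interval was. No other first-ChIP interval was in the domain, so the remaining 5 validation intervals were not shared.

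Those 5 intervals were spread over the gene and the region beyond its 3′ end. In the gene body they lay at 99264997 to 99265524 with a score of 8, at 99067923 to 99068453 with 12 and at 98933197 to 98933712 with 16. The first of these was 1.26 kb from the Foxp1 start that the promoter table places in the middle of the gene, and the last was 8.11 kb from the 3′ gene end. Beyond the gene they lay at 98784085 to 98784892, 141 kb away with a score of 13, and at 98535714 to 98536300, 389 kb away with a score of 20. The last of these had the highest score of the 6 and lay in the long non-coding RNA gene 4930595L18Rik, nearer to Gm765 than to Foxp1. With 6 validation intervals Foxp1 was among 186 of 21779 protein-coding genes (0.854%) with at least as many, a cut chosen after the count was seen. That share takes no account of domain length, and the Foxp1 domain is long at 1279 kb. Its domain held 4.69 validation intervals per Mb, beside 1.70 over all domains. Some forkhead domains with fewer intervals held more per Mb, such as those of Foxf2 (12.2) and Foxa1 (11.0).

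Foxp4 and Foxp2 are related factors of the same subfamily; the intervals of Foxp4 lay upstream of the gene, and that of Foxp2 in the gene body. Foxp4 (chromosome 17, 47867133 to 47924632) had a shared interval 64.6 kb upstream, at 47989064 to 47989453 with a score of 20 in the first ChIP and at 47988421 to 47989314 with a score of 7 in the validation ChIP. That pair matched loosely: the summits were 365 bp apart, 28.1% of the validation interval was covered, and 7 was close to the lowest score of the validation list, with 4446 intervals above it. It lay in the long non-coding RNA gene Gm41591 and was nearer to the protein-coding gene 1700122O11Rik than to Foxp4. A validation interval at 47942940 to 47943622, with a score of 13, lay 18.6 kb upstream of Foxp4 and was not shared. Foxp2, at 14901349 to 15441977 on chromosome 6, had 1 validation interval in its body (15129958 to 15130704, score 14) and none of the first ChIP in its 965 kb domain. Foxp3, the regulator of regulatory T cells, had none in a domain of 21.0 kb. The deposited list named Active Regions has 735 entries, each identical to a first-ChIP interval, so it is not separate evidence of activity at these sites. It holds all 707 shared first-ChIP intervals and 28 of the other 580 (4.83%), and so also the 3 shared ones of the family. None of the family's 6 others was in it.

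The forkhead interval that ranked highest within its own list was a validation interval between Foxf2 and Foxc1 on chromosome 13, at 31710518 to 31711125, with a score of 32. Only 43 of 4501 validation intervals scored higher. Among the 3800 that were not shared, 1 scored higher and 1 other had the same score. It lay in no annotated gene, 79.4 kb downstream of Foxf2 (31625816 to 31631406) and 95.8 kb upstream of Foxc1 (31806646 to 31810635), and the nearest first-ChIP interval was 142 kb away. Foxf2 and Foxc1 are mesenchymal regulators, and together with Foxq1 (31558170 to 31560976) they form a row of forkhead genes. The joined domains of these 3 genes spanned 845 kb and held 4 validation intervals and no first-ChIP interval. The others were at 31674470 to 31674886 (score 9), also between Foxf2 and Foxc1, at 31603879 to 31604400 (score 10), between Foxq1 and Foxf2 and 21.7 kb upstream of Foxf2, and at 31330557 to 31331032 (score 10), 227 kb from Foxq1.

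A shared interval lay close to Foxc1 but outside its domain, which ends at the neighbouring gene Gmds. It was in the Gmds gene body, 43.1 kb from Foxc1, at 31853551 to 31853944 with a score of 20 in the first ChIP and at 31853588 to 31854206 with a score of 9 in the validation ChIP, and the summits were 184 bp apart. Counted within 50 kb of the gene body without regard to neighbours, Foxc1 and Foxp1 were the 2 members with a shared interval (4.55% of 44, beside 3.15% of all protein-coding genes), 5 had a first-ChIP interval (11.4%, beside 8.34%) and 9 a validation interval (20.5%, beside 18.2%). In windows that do not depend on the distance to a neighbour, the forkhead shares were thus closer to those of all genes.

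**Figure D4:**
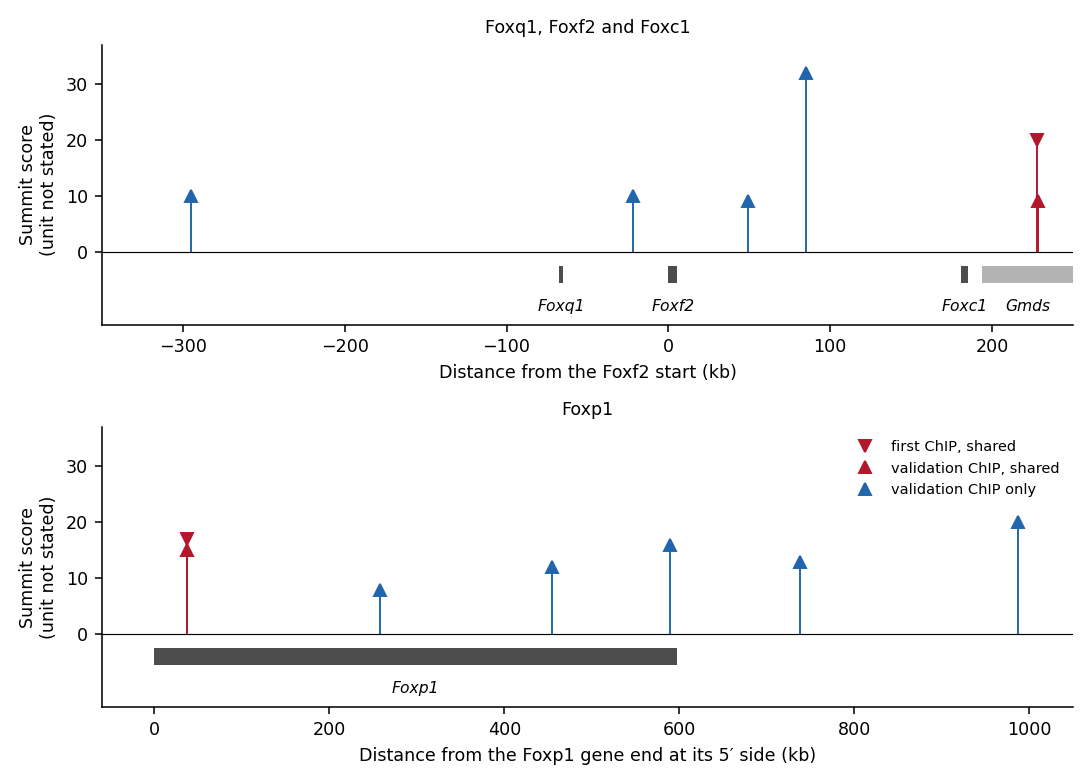
Intervals around Foxq1, Foxf2 and Foxc1 (top) and Foxp1 (bottom). The x axis is the distance in kb from the Foxf2 start or from the 5′ end of the Foxp1 gene body, and the height of each line is the summit score (unit not stated, and not comparable between lists). Triangles point down for the first ChIP and up for the validation ChIP, red marks shared intervals, and bars under the axis are gene bodies. The validation interval with a score of 32 stands between Foxf2 and Foxc1, and the shared pair at the right lies in Gmds.

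The other row of linked forkhead genes, Foxf1, Foxc2 and Foxl1 on chromosome 8, held 2 validation intervals, beside 4 in the Foxq1, Foxf2 and Foxc1 row. Foxf1, a mesenchymal target of Hedgehog signalling, and Foxc2, a regulator of lymphatic vessels and somites, had no interval in domains of 335 and 19.3 kb. Foxl1, a gene of gut mesenchyme, had 2 validation intervals in its 412 kb domain, at 121300507 to 121301225 (score 17) and 121377914 to 121378559 (score 13), 170.2 and 248 kb from the gene. The joined domains spanned 774 kb and held no first-ChIP interval. Over the domains of all protein-coding genes there were 0.485 first-ChIP and 1.70 validation intervals per Mb, so the row is not read as depleted.

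The 6 first-ChIP intervals of forkhead domains that were not shared included several at the starts of other genes. For 3 of them the interval overlapped a promoter window (250 bases before to 50 after a start) of a neighbouring gene, beside 26.0% of the 580 first-ChIP-only intervals in all. No such overlap was seen for the 22 validation-only intervals, beside 8.58% of 3800. In the domain of Foxn2 such an interval was at 88529663 to 88529891 on chromosome 17 (score 15), 347 bp from the start of Ppp1r21, and in the body of Foxn3, at 99392118 to 99392402 on chromosome 12 (score 17), 94 bp from the start of the nested gene Gm51999. These placements tie the sites to forkhead domains by position only.

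The upstream bases of Gm51999 (chr12:99391916-99392165, plus strand) are shown because the first-ChIP interval of Foxn3 covers this start. Capitals mark the bases inside the interval, 48 of 250.
Gm51999: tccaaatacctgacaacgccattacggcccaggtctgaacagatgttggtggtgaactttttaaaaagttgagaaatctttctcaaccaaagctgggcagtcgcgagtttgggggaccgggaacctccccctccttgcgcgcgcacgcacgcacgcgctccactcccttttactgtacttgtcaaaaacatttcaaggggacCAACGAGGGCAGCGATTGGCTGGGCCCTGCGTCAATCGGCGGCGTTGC
Neither the homeodomain cores, nor the forkhead cores, nor the GC box searched above was found in them on either strand. Bases G or C made up 55.2% of this stretch, beside 65.2% before Gm12830 and a median of 52.4% over all windows.

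Foxo3 had a first-ChIP interval close to its own start. The gene (chromosome 10, 42181845 to 42276695) encodes a factor that AKT phosphorylation keeps out of the nucleus. The first-ChIP interval at 42277171 to 42277525, with a score of 16, was centred 653 bp upstream of its start. A further first-ChIP interval at 42056713 to 42056976, also with a score of 16, lay 125 kb downstream, nearer to Armc2. In the first ChIP 1112 intervals scored higher than these. The validation ChIP had no interval in the 294 kb domain, and its nearest interval to Foxo3 was 584 kb away. Of the other FOXO genes, Foxo1 had 1 validation interval 71.6 kb upstream (chromosome 3, 52196456 to 52196961, score 9), and Foxo4 and Foxo6 had none.

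Foxn3, a transcriptional repressor linked to the cell cycle checkpoint, had 3 validation intervals besides its first-ChIP interval. At 99562949 to 99563446 (score 12) the interval was in the gene body, 470 bp from the 5′ end of that body. At 99530070 to 99530446 (score 10) it was 33.4 kb from that end, and at 99603069 to 99603835 (score 17) it was 39.8 kb upstream of it. The promoter table places its nearest Foxn3 start inside the gene, 113, 80.2 and 153 kb from these intervals in the order named. The first-ChIP interval was 138 kb from the nearest of the validation intervals.

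Of the remaining occupied members, 4 had 1 validation interval each. That of Foxa1, an endoderm factor, lay across the 3′ gene end on chromosome 12 (57540368 to 57540854, score 10), with its midpoint 17 bp outside the gene. Foxa2 had one 353 kb away (chromosome 2, score 12, nearer to Pax1), Foxb2 87.1 kb away (chromosome 19, score 9, nearer to Vps13a), and Foxi3 114 kb away (chromosome 6, score 11, nearer to Rpl34-ps1). Within 1 kb of a forkhead gene end there were in all 1 first-ChIP interval, at Foxo3, and 2 validation intervals, at Foxa1 and Foxn3, and none was shared. The like counts for all protein-coding genes were not made, so whether these are few or many is not known.

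Of the 27 members without an interval, 18 had domains under 100 kb. These were Foxa3, Foxc2, Foxd4, Foxe1, Foxe3, Foxh1, Foxj1, Foxj2, Foxj3, Foxk2, Foxl2, Foxm1, Foxn1, Foxn4, Foxo4, Foxp3, Foxr1 and Foxs1. Domains that short are common, with 13531 among the 21779 protein-coding genes. The like share among all genes without an interval was not computed, so this is not read as particular to forkhead genes. The other 9, with longer domains, were Foxb1 (498 kb), Foxd3 (418 kb), Foxf1 (335 kb), Foxd1 (318 kb), Foxk1 (248 kb), Foxi2 (239 kb), Foxo6 (238 kb), Foxi1 (135 kb) and Foxr2 (100.1 kb). Foxd1, a marker of kidney stroma, and Foxd3, a neural crest gene, belong to the same subfamily as Foxd2. An empty domain says only that no interval passed the authors' threshold there.

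Genes that act on or with forkhead factors formed a list of 44, among them AKT and PI3-kinase genes upstream of FOXO factors, SMAD partners, Hedgehog pathway genes and Groucho-type corepressors. Of these, 6 had a shared interval in their domain (13.6%, beside 3.41% of all genes), 10 a first-ChIP interval (22.7%, beside 6.04%) and 18 a validation interval (40.9%, beside 15.1%). Their domains had a median of 282 kb, longer than those of the forkhead genes. All 6 with a shared interval had domains over 500 kb, from 698 kb (Smad2) to 1860 kb (Pik3r1). In that length class 19.6% of all genes had a shared interval. The shares of this list were not split by domain length, so they are not set beside genes of like length. The nearest shared interval lay 0.126 kb inside a gene end of Tle1 and 1.61 kb from Tle3, both Groucho-type corepressors, and 8.47 kb from Gli2 and 120.1 kb from Gli3, both Hedgehog effectors. It was 24.9 kb from Smad2, a signal transducer of activin and nodal, and 253 kb from Pik3r1, a regulatory subunit of PI3-kinase.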

How the data were processed

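Per the submitters' processing notes, the authors used BWA and the build mm10; how peaks were called, at which threshold and against which control is not given in the sources used here. The deposited lists hold intervals and 1 summit score per interval, made by the authors in each ChIP sample alone. The list of the validation sample repeats the 1287 first-ChIP intervals, which were counted once. Intervals were tied to samples by track names. Per the labels' protocols, tissue was fixed with 1% formaldehyde for 15 min, and 30 µg of chromatin sheared to 300 to 500 bp was precipitated with 20 µl of antibody.

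With Python 3.11.15 and pandas 2.3.3, midpoints were placed in gene domains built from 49603 RefSeq genes (GRCm38.p6), leaving out autosomal and X entries that start before 3 Mb. Nested genes do not end a domain. Coordinates count from 1. Start sites and strands came from the RefSeq promoter table, which held 28 of the 44 members. No test was run: with 1 sample per group, gene counts are set beside all protein-coding genes, and promoter windows beside all promoter windows. The domain and overlap functions were tested on simulated data. The rule for named genes was every member with an interval, in detail where shared, and regulators with a shared interval. The members, lists and alternatives were chosen with earlier results of these data known. Results for 1 member are not reported here; it is included in the counts. Read depth is unknown.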

Additional observations from a re-analysis of the deposited data

How the results depend on the processing

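Of the 34 counts under other settings, 22 stayed within 1.5-fold of the reported one and 12 did not; the cause was not tested unless the setting removes intervals by construction. Shared intervals in forkhead domains, 3 in as many members, fell to 1 in 1 member, Foxd2, in each of 3 settings: overlap of at least 50% of both intervals, summits within 100 bp, and intervals at or above the median score of their list. The last setting left 2 first-ChIP intervals in 2 domains and 16 validation intervals. With windows of 50 kb not stopped by neighbours there were 5 first-ChIP intervals, and 14 validation intervals around 9 genes; shared intervals then lay at Foxc1 and Foxp1. No paired analysis was possible because each ChIP has 1 sample and no test was run. The number of samples and the unknown read depth limit every count here: an interval of 1 list only may have been near the threshold in the other.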

Other observations

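The promoter table held 33 windows of 28 forkhead genes. In the 250 bases before the start, the GC box GGGCGG was found on either strand in 23 of them (69.7%), beside 32.7% of all 32851 windows. The median share of G or C was 62.0%, beside 52.4%. All windows include starts of non-coding genes, whereas the forkhead windows are of protein-coding genes only, so the 2 sets are not alike. TAATTA was found in 2 (6.06%, beside 4.84%), before Foxn1 and before a start of Foxp1. Of the forkhead cores, TGTTTAC was found in 1 (3.03%, beside 3.17%), before Foxa1. The other, TGTTTGC, was found in 2 (6.06%, beside 4.30%), before Foxj3 and before a start of Foxp1. CACCTG, an E-box, was found in 7 (21.2%, beside 17.2%). None of the 33 windows overlapped an interval of either list. Over all 32851 windows, 151 first-ChIP-only and 326 validation-only intervals overlapped one. The share of all windows that overlapped an interval was not computed, so the count for forkhead windows is not read as a trait of the family.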
